A study of Mus musculus with 10 samples.

Results

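Cytosolic ribosomal protein genes were compared in neutrophils sorted from mouse squamous cell carcinoma (SCC) grafts that differed in the transcription factor Sox2 and in immunotherapy. A gene was a member if its annotated type is protein coding and its symbol is Rpl or Rps with a number, or Rplp0, Rplp1, Rplp2 or Rpsa. This rule uses names and no measured value. It found 83 members among the 55385 mouse genes in the deposited table, 32 of the small and 51 of the large ribosomal subunit, on 19 chromosomes.

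All grafts grew in CatchupIVM-red hosts, a strain that expresses the red fluorescent protein Tomato and Cre recombinase from the neutrophil gene Ly6g, and all libraries came from Tomato+ cells. The study asked whether Sox2 in tumour stem cells alters how neutrophils respond to interferon and therapy. The hosts carried grafts of parental Sox2low control SCC cells or of Sox2Hi SCC cells. Sample descriptions mark all libraries C57, the control grafts GFP and the others Sox2, without further explanation. Each graft was left naive or the host received anti-PDL1 antibody and a CD40 agonist, called treated here. Bulk RNA-seq gave 10 libraries: 3 from naive and 2 from treated control tumours, and likewise 3 and 2 from Sox2Hi tumours. The labels name no host age, and do not say whether the libraries of a group came from separate mice. The p-values therefore measure the spread between these libraries, which may be technical.

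Ribosomes are made of a small subunit, which reads the messenger RNA, and a large subunit, which joins amino acids, and each mature ribosome holds a single copy of most of these proteins. Their genes are usually transcribed and translated together, and their messages belong to the 5′ TOP class, which begin with a cytosine and a run of pyrimidines and are translated under control of the mTOR kinase. Neutrophils lose much of their capacity to make ribosomes while they mature in the bone marrow.

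The libraries held 13815734 to 22986193 estimated counts, of which 172759 to 331241 fell on members. Neutrophil markers were present in all groups, with S100a8 at group means of 1270 to 9060 CPM (counts scaled to a common library total), while Ly6g itself had group means of 2.30 to 14.9 CPM. Among control tumours the summed share of 20 neutrophil markers was 1.46% to 2.28% of all counts in naive and 3.09% to 3.22% in treated libraries. In Sox2Hi tumours it was 1.47% to 2.00% in naive and 1.92% to 2.27% in treated libraries. Markers of other cell types were also measured. In control tumours the 10 fibroblast and endothelial markers took 0.0334% to 0.0909% in naive and 0.0081% and 0.00982% in treated libraries. The 12 keratinocyte markers took 0.124% to 0.35% and then 0.0638% and 0.121% there. In Sox2Hi tumours the former took 0.0572% to 0.0844% and then 0.0112% and 0.0352%. The latter took 0.172% to 0.219% and then 0.088% and 0.168%. For both lists naive and treated libraries did not overlap in either graft. The 12 macrophage and dendritic markers took 0.816% to 1.18% in naive and 1.33% and 1.4% in treated libraries of control tumours. They overlapped in Sox2Hi tumours, at 0.901% to 1.24% in naive and 0.996% and 2.01% in treated libraries. The 6 erythroid markers had a treated mean of 0.134 times the naive mean in control and 0.0797 times in Sox2Hi tumours, with no overlap. The 6 mast cell markers had 0.0892 times in control tumours with no overlap, and overlapped in Sox2Hi tumours. The 6 B and plasma cell markers overlapped in control tumours and in Sox2Hi tumours took 0.0168%, 0.0809% and 0.0206% in naive and 0.0118% and 0.00228% in treated libraries. The 10 T and NK cell markers overlapped in both grafts. The part of these shifts in the results below was not tested.

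The members together took a smaller share of the counts in treated than in naive libraries of both grafts. In control tumours the share was 1.75%, 1.25% and 1.94% in the naive libraries and 0.937% and 1.15% in the treated libraries. In Sox2Hi tumours it was 1.47%, 1.73% and 1.84% in the naive libraries and 1.16% and 1.05% in the treated libraries. The naive and treated libraries did not overlap in either graft, and control naive library 2 was the lowest of the naive libraries.

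The treated mean was 0.634 times the naive mean in control tumours (1.04% ± 0.15, SD, n = 2, against 1.65% ± 0.36, n = 3). It was 0.658 times the naive mean in Sox2Hi tumours (1.11% ± 0.077, n = 2, against 1.68% ± 0.19, n = 3). The grafts differed by less than the spread between libraries: the Sox2Hi mean was 1.02 times the control mean in naive and 1.06 times in treated tumours. In bulk samples, fewer cells with these messages and fewer messages per cell cannot be told apart.

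**Figure D1:**
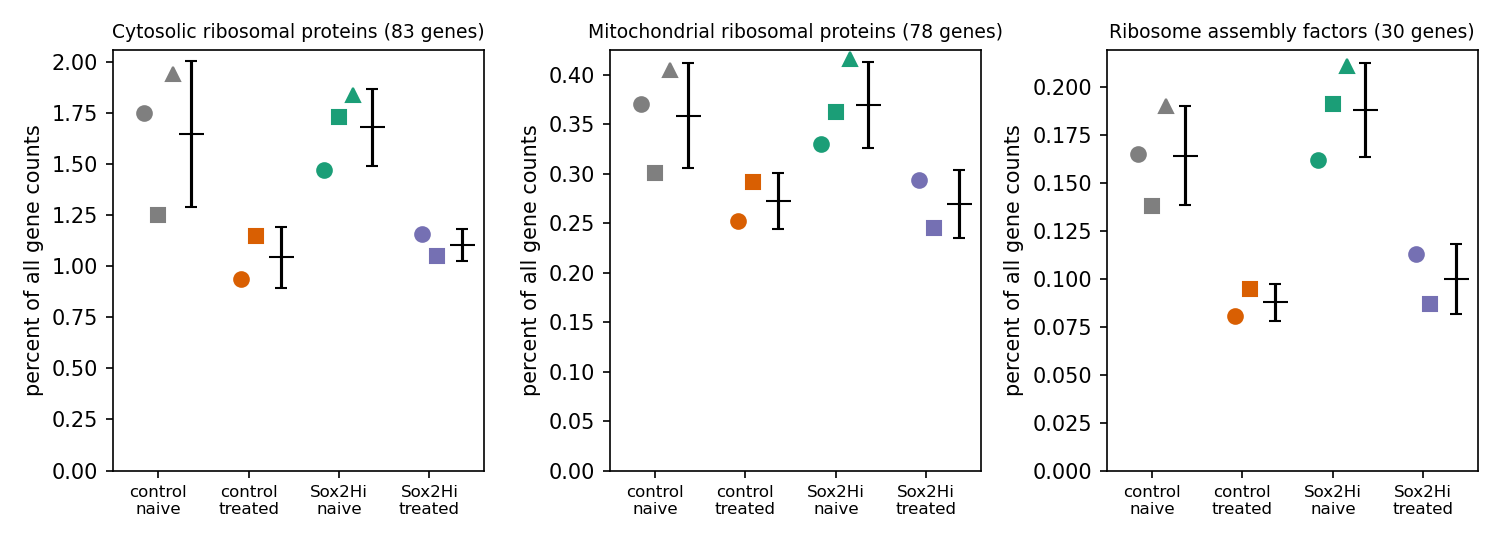
Percent of all gene counts taken by 3 gene lists in each of the 10 libraries. Points are libraries (circle, square and triangle for replicates 1, 2 and 3), and the black bar is the group mean with its SD. The 83 members had means of 1.65% in naive and 1.04% in treated control tumours and of 1.68% and 1.11% in Sox2Hi tumours, and both other lists also lie lower in treated libraries.

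A share of all counts moves with the genes that fill the rest of the library, so single members were tested after scaling. The libraries were scaled on the 11274 genes whose mean reached 5 CPM (expressed-gene scaling), and 80 of the 83 members passed this filter. Differences are log2 fold changes with their standard errors, tested with edgeR's quasi-likelihood test over all 11274 genes at a Benjamini-Hochberg adjusted p under 0.05. The direction of the family's median depended on the scaling in control tumours, so a second scaling over 29648 genes (all-gene scaling) and one more on the members' own summed counts (family scaling) are given beside it.

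With expressed-gene scaling few members were called after treatment of control tumours, while other settings, described below, called 7 to 64. Of the 80 tested members 3 rose and 8 fell, which is 13.8% of them, against 56.5% of all genes tested, 28.7% higher and 27.8% lower. The members' share is thus well below the background, and their median was -0.15 against -0.05 for all genes and 0.67 for the other 1424 genes with at least 100 CPM. With all-gene scaling 11 members rose and none fell, against 18.7% and 15.3% of all genes, and the members' median was 0.27 while that of all genes moved to -0.30. The sign of the members' median thus turned with the scaling. With expressed-gene scaling it lay between -0.42 (without control treated library 2) and -0.08 when each library was left out. The treated libraries lay wholly above the naive libraries for 8 members and wholly below for 11, against 34.1% and 33.2% of all genes.

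The start sites of 3 members that rose and 3 that fell are shown here, because the pyrimidine run of 5′ TOP messages begins there. RefSeq promoters (GRCm38.p6) were found for 63 of 83 members. A start-site run was taken as a C within 3 bases of the annotated start followed without a break by at least 4 of C or T, on the gene's strand. It was present in 25 of the 63 (39.7%), against 13.5% of all 27025 genes in the same window. Each line holds 40 bases before and 20 from the start, 5′ to 3′, with the run in capitals where present.
Rps9 (chr7:3704001-3704060, plus strand): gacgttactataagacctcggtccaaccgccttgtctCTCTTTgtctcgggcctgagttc
Rps27 (chr3:90213629-90213688, minus strand): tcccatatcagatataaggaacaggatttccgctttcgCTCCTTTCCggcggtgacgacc
Rpl22l1 (chr3:28805468-28805527, plus strand): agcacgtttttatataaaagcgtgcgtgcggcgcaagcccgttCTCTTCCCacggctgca
Rpl12 (chr2:32961672-32961731, plus strand): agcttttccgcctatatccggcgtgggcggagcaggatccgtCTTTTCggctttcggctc
Rps12 (chr10:23787190-23787249, minus strand): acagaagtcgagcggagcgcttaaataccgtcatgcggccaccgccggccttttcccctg
Rpl5 (chr5:107900488-107900547, plus strand): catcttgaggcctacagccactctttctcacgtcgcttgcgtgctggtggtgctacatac

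Rps9, a small-subunit protein at the entry of the messenger RNA channel, had the largest rise among the 80 members that passed the filter. It lay at 299, 267 and 275 CPM in control naive libraries and at 514 and 565 CPM in control treated libraries. In Sox2Hi tumours it lay at 271, 308 and 254 CPM in naive and at 313 and 399 CPM in treated libraries. Both control treated libraries were higher than all 8 others, and the treated libraries did not overlap the naive libraries in either graft. Its log2 fold change was 0.94 ± 0.15 in control tumours (edgeR adjusted p = 0.00077) and 0.36 ± 0.16 in Sox2Hi tumours (adjusted p = 0.12). The call in control tumours held in all 10 fits that left out 1 library, with values of 0.73 to 0.96, and was lost with raw library totals in place of scaling, with a value of 0.31.

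Rps27, a zinc-binding small-subunit protein, also rose in control tumours. It lay at 573, 443 and 463 CPM in naive and at 673 and 832 CPM in treated libraries of control tumours, and at 369, 414 and 364 CPM and then 439 and 524 CPM in Sox2Hi tumours. The groups did not overlap in either graft. The log2 fold change was 0.61 ± 0.17 in control (edgeR adjusted p = 0.011) and 0.33 ± 0.17 in Sox2Hi tumours (adjusted p = 0.17). The control call was lost in 3 of the 10 fits that left out 1 library, those without control naive library 3, control treated library 2 or Sox2Hi naive library 2, with values of 0.31 to 0.70 over the 10 fits. With raw library totals Rps27 had -0.03, so its direction turned.

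Rpl22l1, the paralogue of the RNA-binding large-subunit protein Rpl22, rose as well. It lay at 40.6, 30.9 and 44.5 CPM in naive and 51.4 and 63.8 CPM in treated libraries of control tumours. In Sox2Hi tumours its libraries overlapped, at 36.8, 45.5 and 37.4 CPM in naive and 30.9 and 45.3 CPM in treated libraries. The log2 fold change in control tumours was 0.58 ± 0.21 (edgeR adjusted p = 0.039), and the call was lost in 9 of the 10 fits that left out 1 library, all but that without Sox2Hi treated library 1. With raw library totals Rpl22l1 had -0.07, the other direction. Rps9, Rps27 and Rpl22l1 were the members called with both expressed-gene and all-gene scaling in control tumours, where all-gene values were 1.36, 1.03 and 0.99.

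Rps12, a protein of the beak of the small subunit, fell most. It lay at 45.4, 38.9 and 50.3 CPM in the naive and 17.1 and 26.9 CPM in the treated libraries of control tumours. Its levels in Sox2Hi tumours were 30.8, 38.2 and 40 CPM in naive and 26.0 and 19.9 CPM in treated libraries. All treated libraries were below all naive libraries. The log2 fold change was -1.03 ± 0.23 in control tumours (edgeR adjusted p = 0.0035), called in all 10 fits that left out 1 library, and -0.66 ± 0.23 in Sox2Hi tumours (adjusted p = 0.06).

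Rpl12, a protein at the base of the stalk on which elongation factors land, was called in both grafts. It lay at 18.9, 12.7 and 19.2 CPM and then 6.4 and 10.4 CPM in control tumours, and at 15.1, 20.1 and 24.1 CPM and then 11.3 and 9.1 CPM in Sox2Hi tumours. The treated libraries were again below the naive libraries in both grafts. The log2 fold changes were -1.0 ± 0.29 (edgeR adjusted p = 0.012) and -0.96 ± 0.28 (adjusted p = 0.039). The control call was lost without control treated library 1, at a value of -0.75.

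Rpl21 of the large subunit (chromosome 5, 146832890 to 146837032, mm10) lay at 310, 199 and 341 CPM and then 166 and 195 CPM in control tumours, and at 238, 298 and 310 CPM and then 169 and 145 CPM in Sox2Hi tumours. Its log2 fold changes were -0.65 ± 0.23 (edgeR adjusted p = 0.031) and -0.84 ± 0.23 (adjusted p = 0.03). Control naive library 2, at 199 CPM, was close to the treated libraries, and the control call was lost without control naive library 1 or control treated library 1. Others that fell in control tumours were Rps21 (-0.60), Rpl5 (-0.60), Rpl36 (-0.51) and Rpl38 (-0.49), called in 9, 7, 9 and 6 of the 10 fits that left out 1 library; control treated library 1 ended each of these calls. None of the 8 was called as fallen with all-gene scaling, where Rps12 had -0.61 and Rpl12 -0.59.

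In Sox2Hi tumours the family lay lower as a whole after treatment. Of 80 members 77 had a negative log2 fold change, with a median of -0.34 against 0.03 for all genes, and with all-gene scaling the median was -0.55 against 0.07. In 58 members both treated libraries lay below all naive libraries and in 2 above, against 30.0% and 32.5% of all genes. Few passed the test: 6 fell (7.5%) and none rose, against 8.23% and 11.8% of all genes, so in this fit the count of falls is near the background. Other settings, described below, called 0 to 43 members. The median of the members lay between -0.41 and -0.21 when each library was left out.

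Among the 6 members that fell in Sox2Hi tumours were Rpl12, Rpl21, Rpl5, Rps2 and Rpl14. Rpl5, which carries 5S ribosomal RNA into the large subunit and, free of ribosomes, binds Mdm2, had a log2 fold change of -0.76 ± 0.22 (edgeR adjusted p = 0.037). It lay at 29.1, 29.9 and 33.4 CPM in naive and 20.4 and 15.9 CPM in treated libraries. Rps2, a small-subunit protein beside the entry of the messenger RNA channel, fell by 0.74 on the log2 scale (SE 0.19, edgeR adjusted p = 0.026). Its libraries lay at 249, 301 and 303 CPM in naive and 169 and 172 CPM in treated Sox2Hi tumours, with no overlap. In control tumours they lay at 237, 197 and 312 CPM in naive and 193 and 191 CPM in treated libraries, just without overlap, with a log2 fold change of -0.38 ± 0.19 (edgeR adjusted p = 0.11).

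Each of the 6 was called in 2 to 6 of the 10 fits that left out 1 library. None of the 6 was called with all-gene scaling, where the sole call was a rise of Rpl3l, a paralogue of Rpl3 known from muscle, against 1.79% of all genes higher and 1.82% lower. No member was called in the 4 fits without Sox2Hi naive library 2 or 3 or Sox2Hi treated library 1 or 2. Without control naive library 2, the naive library with the lowest family share, 29 members were called in each graft, 27 of them lower in control tumours, against 28.2% of all genes higher and 29.7% lower, and all lower in Sox2Hi tumours, against 28.7% of all genes called in either direction and 15.8% called higher. With raw library totals in place of scaling 64 members fell in control and 43 in Sox2Hi tumours, against 55.3% and 21.0% of all genes.

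**Figure D2:**
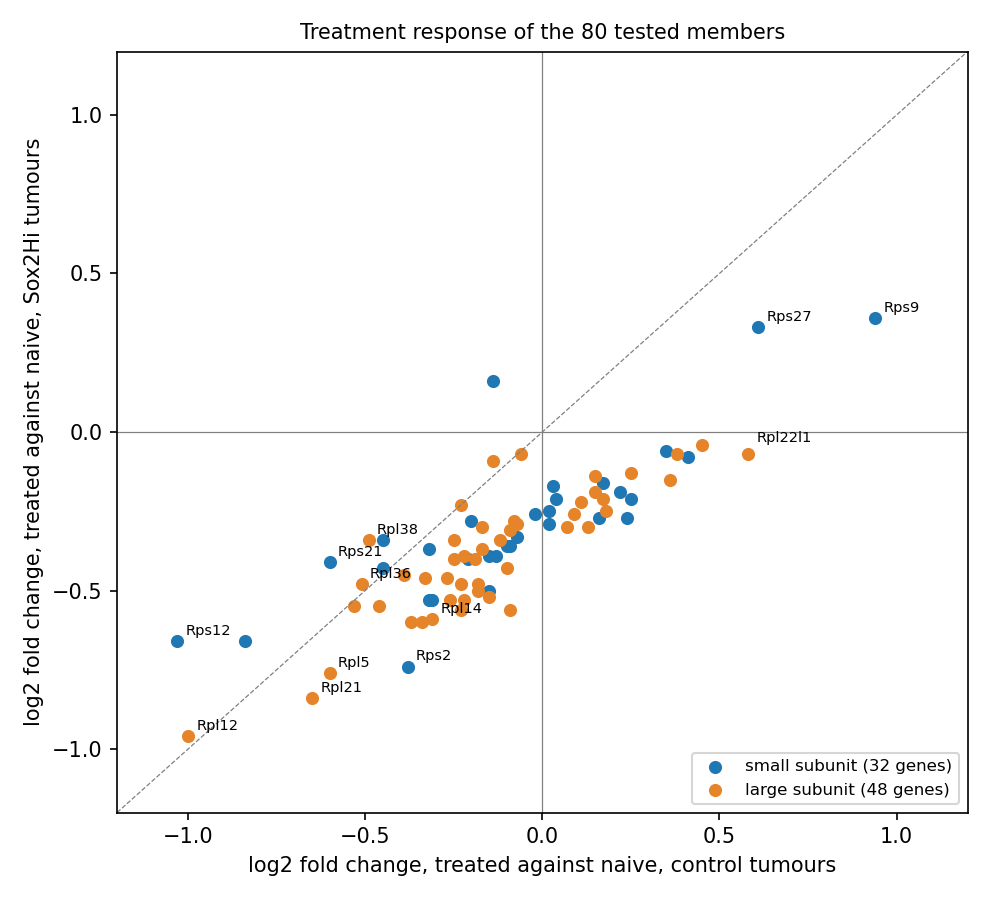
Log2 fold change of treated against naive libraries for the 80 tested members, in control tumours on the horizontal and in Sox2Hi tumours on the vertical axis, with expressed-gene scaling. Each point is a gene, coloured by subunit, the dashed line marks equal change, and names mark members called in either graft. Rps9 and Rps27 lie far right and Rps12 and Rpl12 far left, while 77 of 80 points lie below 0 on the vertical axis; with all-gene scaling the control values shift up, to a median of 0.27.

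The order of the members was alike in both grafts. Across the 80 members the log2 fold changes of treatment in control and Sox2Hi tumours, which share no library but come from 1 fit, had Pearson's r = 0.835 and Spearman's rho = 0.837. Across the 1424 other genes with at least 100 CPM the values were 0.64 and 0.767. The points share libraries and scaling, so these values are a description. The spread of the members was wider in control tumours (SD 0.338) than in Sox2Hi tumours (SD 0.225).

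Family scaling asks which members changed relative to the others. In control tumours 4 members rose and 8 fell within the family, against 19.6% and 18.5% of all genes, and 10 of the 11 calls of expressed-gene scaling were shared, all in the same direction. Rpl36a (-0.48) was added as a faller, and Rpl5 was lost (-0.56, edgeR adjusted p = 0.056). Rps9 and Rps12 were called in all 10 fits with family scaling that left out 1 library, in which 3 to 18 members were called.

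As a share of the family's counts Rps9 took 1.87%, 2.37% and 1.64% in the naive and 3.9% and 3.56% in the treated libraries of control tumours. The Sox2Hi tumours had 2.07%, 2.01% and 1.68% in naive and 2.79% and 3.31% in treated libraries. Rps27 took 3.57%, 3.93% and 2.75% and then 5.1% and 5.24% in control tumours, and 2.82%, 2.71% and 2.41% and then 3.91% and 4.35% in Sox2Hi tumours. Both shares were higher in the treated than in the naive libraries of the same graft. No member was called in Sox2Hi tumours with family scaling, against 6.25% of all genes, where Rps9 had 0.67 ± 0.20 (edgeR adjusted p = 0.071) and Rps27 0.64 ± 0.20 (adjusted p = 0.072), and 5 members had an unadjusted p under 0.05. With family scaling 3 members were called there without control naive library 2 (2 higher and 1 lower) and 2, both higher, without control naive library 3.

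**Figure D3:**
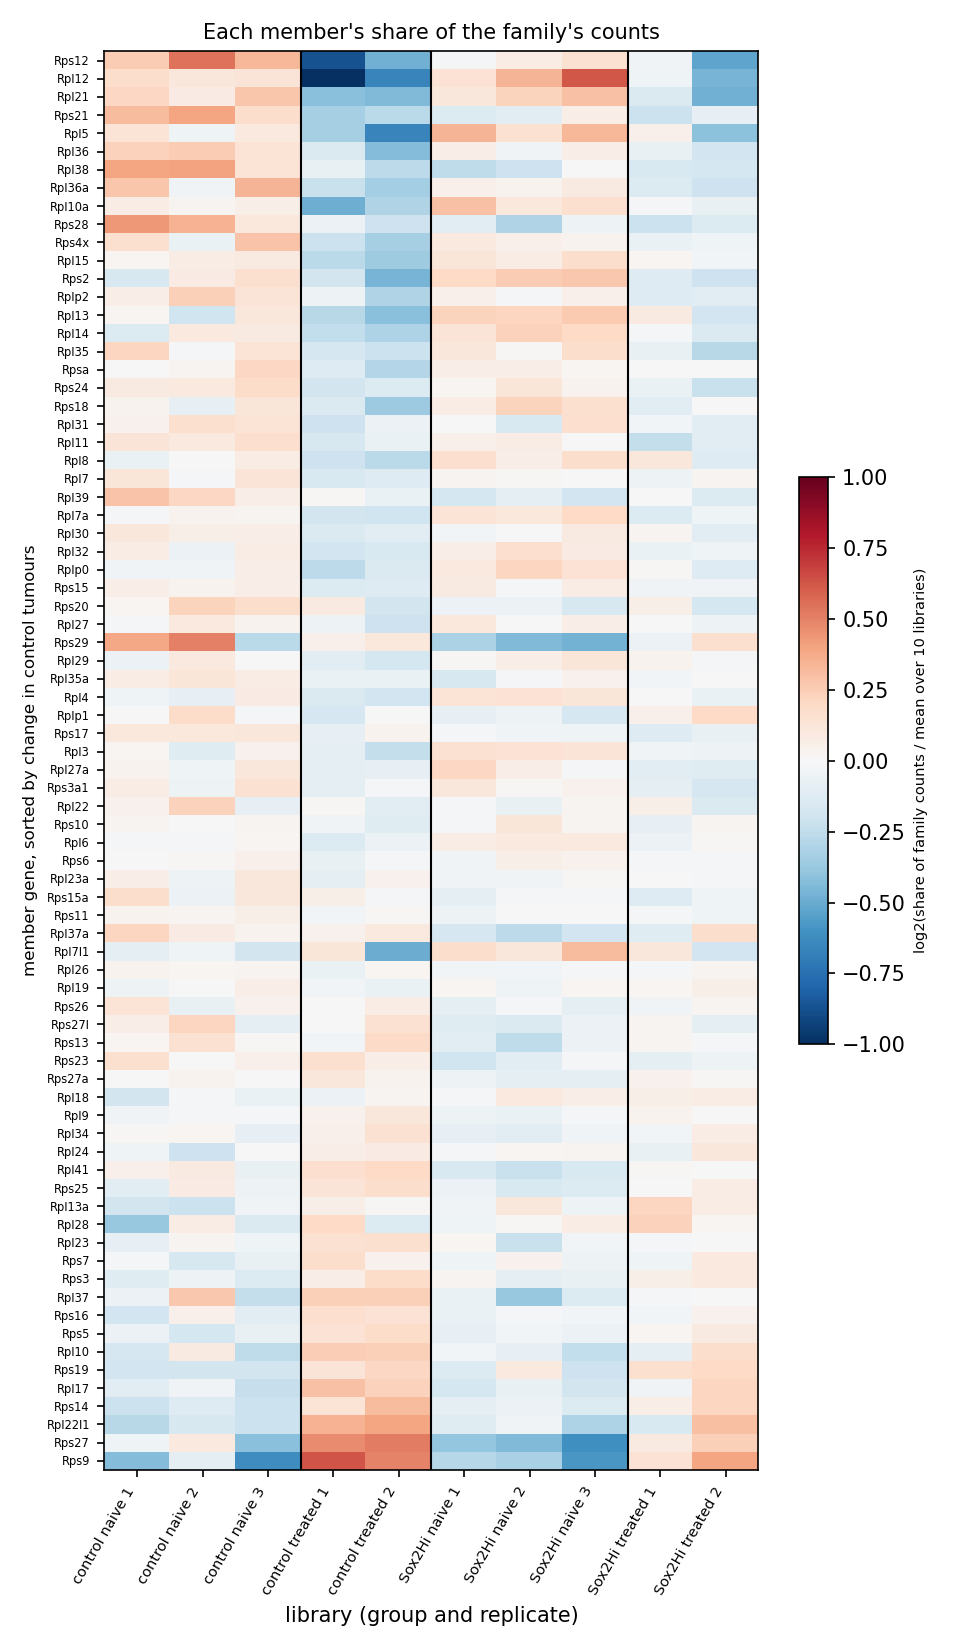
Share of the family's counts for 78 of the 80 tested members in the 10 libraries, as log2 of the share over its mean across libraries. Rows are genes sorted by their change in control tumours, columns are libraries, and black lines separate the groups. Rps12, Rpl12 and Rpl21 near the top are low and Rps9, Rps27 and Rpl22l1 at the bottom are high in the control treated libraries, with a paler version in the Sox2Hi treated libraries.

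The small subunit took a slightly larger part of the family's counts in treated libraries. The small-subunit members took 39.5%, 40.6% and 38.9% of the family's counts in the naive and 43.0% and 43.3% in the treated libraries of control tumours. In Sox2Hi tumours they took 38.5%, 38.8% and 37.8% in naive and 40.5% and 42.0% in treated libraries. The treated libraries lay above the naive libraries in both grafts, except that Sox2Hi treated library 1 (40.5%) was just below control naive library 2. Rps9 and Rps27 are both small-subunit members, and the rises in their shares given above are together about as large as this shift. The median log2 fold changes were -0.09 (32 small) and -0.18 (48 large) in control and -0.31 and -0.38 in Sox2Hi tumours, and with all-gene scaling 0.31 and 0.23 in control and -0.52 and -0.59 in Sox2Hi tumours, so the sign in control tumours turned.

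The members of a fixed list were looked at whatever their result. The stalk proteins Rplp0, Rplp1 and Rplp2, which recruit elongation factors, had log2 fold changes of -0.22, -0.14 and -0.33 in control and -0.53, -0.09 and -0.46 in Sox2Hi tumours, none past the test with expressed-gene scaling. Rps6, the substrate of S6 kinase downstream of mTOR, had -0.09 and -0.36, and Rps19, the gene most often mutated in Diamond-Blackfan anaemia, had 0.35 and -0.06. Rpl11, the partner of Rpl5 in binding Mdm2, had -0.26 ± 0.21 and -0.53 ± 0.21 (edgeR adjusted p = 0.3 and 0.09). Rpsa, Rps3, Rps27a (a fusion with ubiquitin), Rps4x, Rpl3, Rpl7, Rpl10, Rpl22 and Rpl39 were not called in any of the 4 comparisons with expressed-gene scaling. With all-gene scaling Rps19 (0.76, edgeR adjusted p = 0.037) and Rpl10 (0.77, adjusted p = 0.014) rose in control tumours, and Rpl10 was lower in Sox2Hi than in control treated tumours (-0.85, adjusted p = 0.032).

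Between grafts the naive libraries differed little by the edgeR test, though another test, limma-voom, called 13 members, all lower. Sox2Hi against control naive tumours gave a median of -0.04 against 0.04 for all genes, and 0.23 against -0.08 with all-gene scaling, so its sign also depended on the scaling. Of 80 members 1 fell (1.25%) and none rose, against 8.59% and 3.18% of all genes, and the groups did not overlap for 2 members, both lower, against 17.6% lower and 16.9% higher among all genes. The member that fell was Rps29, a small zinc-binding protein of the small subunit (chromosome 12, 69157722 to 69159186, mm10). It lay at 101, 76.8 and 66.9 CPM in control and at 50.4, 54.0 and 52.5 CPM in Sox2Hi naive libraries, with no overlap, and its log2 fold change was -0.64 ± 0.17 (edgeR adjusted p = 0.04).

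Naive libraries with the same replicate number deviated together, though the labels name no pairing. With the number as a block in a fit of the naive libraries alone 3 members fell: Rps29 (-0.65 ± 0.14, edgeR adjusted p = 0.015), Rps28 (-0.48, adjusted p = 0.036) and Rpl38 (-0.50, adjusted p = 0.046). In that fit 13.7% of all genes were lower, so the members' count is below the background. No member was called with all-gene scaling (1.87% of all genes) or family scaling (0.0355%), and the call of Rps29 was lost in 6 of the 10 fits that left out 1 library, those without any of the 3 Sox2Hi naive libraries, Sox2Hi treated library 1 or control naive library 1 or 2. Of the members, 4 had an unadjusted p under 0.05 with expressed-gene scaling, 2 with all-gene scaling and 5 with family scaling.

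In treated tumours the members lay lower in Sox2Hi than in control grafts after scaling. The median was -0.30 against -0.07 for all genes and -0.49 for the other genes with at least 100 CPM, and 75 of 80 values were negative. The members' median moved to -0.05 without control treated library 2, and its lowest value with a library left out was -0.37. The Sox2Hi libraries lay below both control libraries for 60 members and above for none, against 34.1% and 28.8% of all genes. By the test 3 fell (3.75%) and none rose, against 10.1% and 11.8%. With all-gene scaling 8 fell and none rose, against 9.57% and 4.18%, with a median of -0.65, but the family median was 0.02 with family scaling and 0.11 with raw library totals.

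The 3 were the risers Rps27 (-0.64 ± 0.19, edgeR adjusted p = 0.037) and Rps9 (-0.60 ± 0.17, adjusted p = 0.034), and Rpl37 (-0.57 ± 0.16, adjusted p = 0.031), a zinc-binding large-subunit protein (chromosome 15, 5116645 to 5119140, mm10). Rpl37 lay at 143 and 171 CPM in control treated and at 101 and 111 CPM in Sox2Hi treated libraries, and at 108 to 141 CPM in the naive libraries. All 3 were also called with all-gene scaling, and none with family scaling, which called 0.337% of all genes. Each of the 3 calls was lost in 9 of the 10 fits that left out 1 library, and in the fit without control naive library 2 a total of 7 members were called, all lower, against 13.5% of all genes.

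A test of whether treatment acted differently in the grafts (the interaction of graft and treatment) called none of the 80 members with expressed-gene scaling, against 23.7% of all genes, and 1 had an unadjusted p under 0.05. DESeq2 called 1 member. With all-gene scaling 15 of 82 members (18.3%) were called, all with a lower response in Sox2Hi tumours, which is near the 16.2% of all genes, and with family scaling none, against 8.93%. The largest of the differences with expressed-gene scaling were those of Rpl22l1 (-0.64 ± 0.31, edgeR adjusted p = 0.15) and Rps9 (-0.59 ± 0.22, adjusted p = 0.079).

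**Figure D4:**
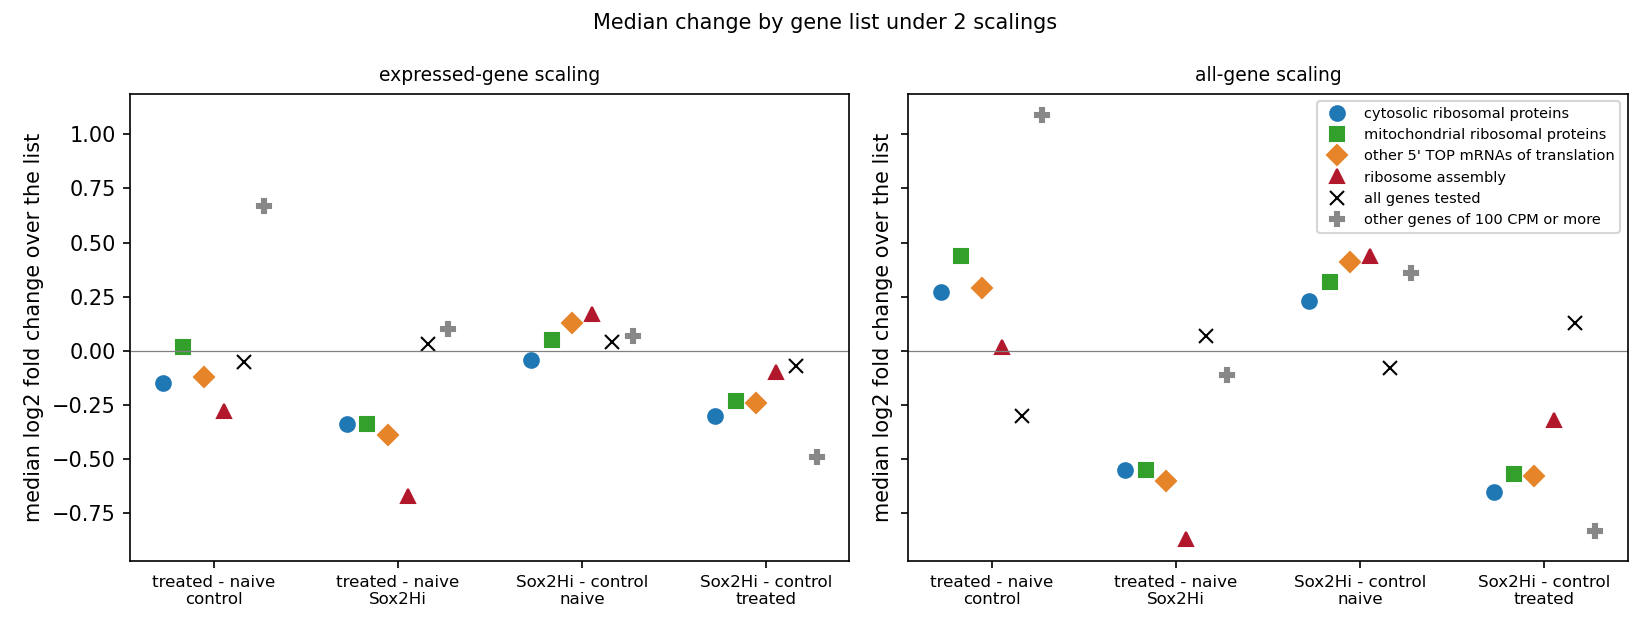
Median log2 fold change of 4 gene lists, of all genes tested and of the other genes with at least 100 CPM, in 4 comparisons, with expressed-gene scaling on the left and all-gene scaling on the right. Each symbol is the median of a list. The cytosolic ribosomal proteins lie at -0.15 in control and -0.34 in Sox2Hi tumours on the left, and at 0.27 and -0.55 on the right, so the value in control tumours changes sign with the scaling.

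Some members have a paralogue, a second gene for nearly the same protein, and the share of each in its pair does not depend on the scaling. Rps27l, a target of the tumour suppressor p53, took 23.5%, 23.7% and 26.4% of the counts of Rps27 and Rps27l in the naive and 17.1% and 18.2% in the treated libraries of control tumours. Its share in Sox2Hi tumours was 25.5%, 26.0% and 29.6% in naive and 21.5% and 18.5% in treated libraries. All 4 treated libraries were below all 6 naive libraries. Rps27l had log2 fold changes of 0.02 in control and -0.25 in Sox2Hi tumours, neither past the test. Which partner moved depended on the scaling: with raw library totals Rps27 had -0.03 and Rps27l -0.62 in control tumours.

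Rpl22l1 took 47.3%, 46.1% and 50.6% of its pair with Rpl22 in the naive and 58.5% and 61.3% in the treated libraries of control tumours. Among Sox2Hi tumours it took 50.8%, 53.4% and 46.9% and then 49.1% and 60.3%, so the groups overlapped. Rpl7l1 took 18.5% to 26.6% of its pair with Rpl7. Its naive and treated libraries overlapped in both grafts, while the Sox2Hi naive libraries (24.6%, 23.9% and 26.6%) lay above the control naive libraries (20.3%, 22.3% and 19.1%).

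Rpl3l took 0.795% to 2.23% of its pair with Rpl3 in the naive and 3.01% and 4.59% in the treated libraries of control tumours, and 0.63% to 0.914% and then 1.9% and 3.17% in Sox2Hi tumours. It had 40 to 74 counts per naive and 72 to 164 per treated library, and fell short of the 5 CPM filter with a mean of 4.71 CPM. With all-gene scaling, where it was tested, Rpl3l rose by 1.90 in control (edgeR adjusted p = 0.00023) and 1.13 in Sox2Hi tumours (adjusted p = 0.045). The gene lies near Rps2 on chromosome 17 (24727820 to 24736143, with Rps2 at 24718116 to 24721929, mm10), and the background of silent genes, described next, makes up 10.6% of its counts.

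**Figure D5:**
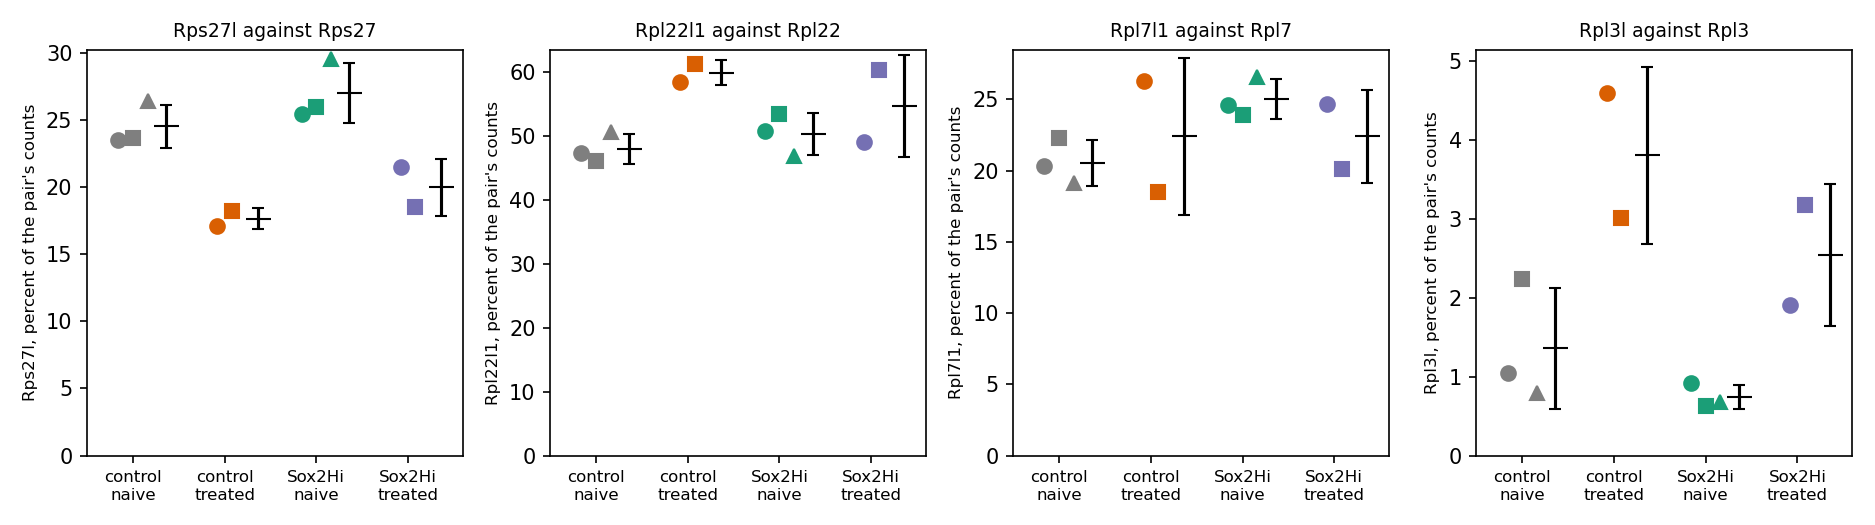
Share of 4 paralogues in the summed counts of their pair, in percent, for each library. Points are libraries (circle, square and triangle for replicates 1, 2 and 3), and the black bar is the group mean with its SD. Rps27l lies at 17.1% to 21.5% in treated and 23.5% to 29.6% in naive libraries, and Rpl3l at 1.9% to 4.59% in treated and 0.63% to 2.23% in naive libraries.

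The remaining members that failed the filter were Rpl39l (mean 0.901 CPM) and Rpl10l (0.225 CPM), both known from testis. A background was estimated from 1464 smell and pheromone receptor genes, which neutrophils are not known to use, as counts per kilobase of exon. It accounts for 29.4% of the counts of Rpl39l and 150% of those of Rpl10l, so Rpl10l was not detectable above it. For the median member it was 0.403%. The background was 5.02% to 8.37% of all counts in control naive, 1.58% and 1.74% in control treated, and 3.63% to 4.96% in Sox2Hi libraries, so it moved with treatment in control tumours. After its subtraction 1 member, Rps9, rose and 25 fell in control tumours, against 26.8% and 25.4% of all genes.

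Levels were compared between genes as CPM per kilobase of transcript (the median length of the gene's coding transcripts), averaged over the 10 libraries. The highest members were Rps27 (1440), Rpl35 (826), Rps14 (646) and Rpl41 (536), the quartiles lay at 89.6, 172 and 279, and the lowest members above the filter were Rpl5 and Rpl12 (both 12.7).

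For Rpl5 and Rpl12 the low level sits beside processed pseudogenes, which are intron-less copies of a message that reads cannot always be told from. Gm15500 on chromosome 7 (114705217 to 114706235, mm10), with 100% identity to the Rpl5 message over the aligned part, was listed at 49506 counts over the 10 libraries, and Rpl5 itself at 4405. Gm10275 on chromosome 10 (29698746 to 29699380), with 100% identity to the Rpl12 message, was listed at 12732 counts, and Rpl12 at 2665. Of the 83 members 22 had pseudogenes that summed to over 10% of their own counts, so the values of these members are uncertain.

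When 1534 pseudogenes matched by sequence were added to their members, Rpl12 had -1.06 ± 0.23 in control and -0.88 ± 0.22 in Sox2Hi tumours (edgeR adjusted p = 0.0026 and 0.023). Rpl5 had -0.54 ± 0.21 and -0.60 ± 0.21 (adjusted p = 0.043 and 0.059), so its call in Sox2Hi tumours was lost, as were those of Rps2 (-0.54, adjusted p = 0.053) and Rpl14 (-0.58, adjusted p = 0.054). In control tumours the call of Rpl22l1 was lost (0.48, adjusted p = 0.079) and falls of Rplp2 (-0.43, adjusted p = 0.042), Rps28 (-0.54, adjusted p = 0.034) and Rpl36a (-0.62, adjusted p = 0.046) were gained, and between treated tumours those of Rps9, Rps27 and Rpl37 were lost (adjusted p = 0.058, 0.061 and 0.097). Rps12 had -0.82 and -0.80 and was then called in both grafts (adjusted p = 0.009 and 0.03). The matched pseudogenes held 0.0781% to 0.156% of all counts, so the family's share stays close to that given above.

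At the start sites shown above, all 3 risers of control tumours had a pyrimidine run, and so did Rpl12, which fell. Rps12 and Rpl5 had none that began within 3 bases of the annotated start. Their printed lines hold unmarked runs of C and T farther from it. Among the fallers not shown, Rps21 and Rpl38 had a run at the start, of 7 and 8 bases. Over the tested members the medians with and without a run were -0.15 (25 genes) and -0.10 (35 genes) in control and -0.36 and -0.34 in Sox2Hi tumours. No match says only that these letters are not at the annotated start.

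Of the 83 members 30 carry within the gene an annotated small nucleolar RNA (snoRNA), a guide for chemical marking of ribosomal RNA. Their median was -0.18 in control and -0.41 in Sox2Hi tumours, against -0.12 and -0.34 for the 50 tested members without. Among members called lower, 5 of 8 in control tumours (Rps12, Rpl12, Rpl21 and Rpl5 among them) and 5 of 6 in Sox2Hi tumours (Rpl12, Rpl21, Rpl5 and Rps2 among them) host a snoRNA, while none of the 3 risers does. No test of this split was made. Exons of 24 members overlap those of another gene, 6 on the same and 19 on the opposite strand (1 on both), and since the strand setting is not given in the sources used here, reads of such genes cannot be told apart. Antisense partners lie over Rpl12 (Lrsam1), Rps2 (Snhg9), Rpl5 (Fam69a) and Rpl22l1 (Gm33051), whose values are uncertain for this reason.

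Other genes of the translation machinery were read from fixed lists. Their counts stand against 28.7% of all genes higher and 27.8% lower in control tumours, and 11.8% higher and 8.23% lower in Sox2Hi tumours. Of 27 tested ribosome assembly factors, which build ribosomes in the nucleolus, 1 rose and 8 fell in control tumours with a median of -0.28, among them Wdr12 (-1.24 ± 0.24, edgeR adjusted p = 0.0016) and Ltv1 (0.67 ± 0.17, adjusted p = 0.0069). The falls there are near the background. In Sox2Hi tumours 14 fell and none rose, with a median of -0.67, among them Bop1 (-1.15 ± 0.29, adjusted p = 0.023) and Gar1 (-1.06 ± 0.34, adjusted p = 0.049). The assembly factors thus had a lower median than the ribosomal proteins (-0.15 and -0.34) in both grafts, also with all-gene scaling (0.02 and -0.87), where the control median is just above 0. Their share of all counts in treated libraries was 0.533 times that of naive libraries in both grafts.

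The 78 mitochondrial ribosomal proteins, which serve the separate ribosomes of mitochondria, had 11 rises and 8 falls in control tumours (median 0.02) and 1 rise and 6 falls in Sox2Hi tumours (median -0.34); with all-gene scaling the medians were 0.44 and -0.55. The falls in Sox2Hi tumours are near the background of 8.23%. Mrpl33 rose in both grafts (1.35 and 0.59) and Mrps6 fell in both (-1.34 and -1.16). Of 21 further 5′ TOP messages of translation factors 2 rose and 3 fell in control tumours (median -0.12, which turned to 0.29 with all-gene scaling), and none rose and 4 fell in Sox2Hi tumours (median -0.39). Hnrnpa1 fell in both grafts (-0.62 and -0.99) and Eif4a2 rose in control tumours (1.02).

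Of 12 tested regulators of ribosome synthesis 5 rose and 1 fell in control tumours, against 28.7% and 27.8% of all genes, with a median of -0.19 that turned to 0.34 with all-gene scaling, and none was called in Sox2Hi tumours. The largest rise was that of Eif4ebp1, an mTOR substrate that represses cap-dependent translation (1.37 ± 0.15, edgeR adjusted p = 1e-04), and the gene that fell was Tsc2, an inhibitor of mTOR (-0.66 ± 0.18, adjusted p = 0.011). Among 4 tested ribosomal proteins that the symbol rule leaves out, Fau, a small-subunit protein made as a fusion, rose in control tumours (0.61 ± 0.16, adjusted p = 0.0078) and Rack1, a scaffold on the small subunit, fell (-0.62 ± 0.21, adjusted p = 0.03).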

How the data were processed

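Bulk RNA-seq of sorted neutrophils was deposited by the authors as 1 table of estimated counts per gene, given as whole numbers. The submitters' processing notes name kallisto 0.44.0 and mm10 without saying how either was used. Of 55481 rows 55385 were mouse genes and 55144 matched the GENCODE M21 annotation (mm10), while 92 spike-in rows and 4 others were left out of library sizes. Counts were analysed with edgeR 4.0.16 in R 4.3.3 over all 10 libraries and 4 groups: mean of at least 5 CPM, TMM factors, quasi-likelihood test, Benjamini-Hochberg adjustment. The fitting script was tested on simulated data with known log2 changes. Over the comparisons it recovered 2.99% to 10.4% of changes of 0.5, 14.9% to 58.2% of changes of 1.0 and 93.9% to 100% of changes of 2.0. Small changes were thus mostly missed. Replicates were not copies of each other (chi-square per degree of freedom at least 12.5).

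Naive libraries with the same title number deviated together (r = 0.35, 0.339 and 0.414 over genes), so the number was tried as a block. Naive libraries of the 2 grafts with different numbers had -0.329 to -0.0313. Sox2Hi naive library 1 and Sox2Hi treated library 2, with different numbers, reached 0.323. The labels name no pairing, and these values do not establish one. Alternatives were DESeq2 1.42.0, limma-voom (limma 3.58.1), other scalings and filters, pseudogenes added (matched with minimap2 2.31, at least 85% identity over 50%) and each library left out. Named members were the 4 largest rises and falls called per comparison with a mean of at least 10 CPM, plus a fixed list of known members and paralogues. Members and lists were chosen with earlier results of these data known. Rps21, Rpl36, Rpl38, Rps28, Rpl36a, Rpl35, Rps14 and Rpl41, and Rpl14 in Sox2Hi tumours, fall outside this rule and were chosen after their values were seen. Some members are not reported here by name.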

Additional observations from a re-analysis of the deposited data

How the results depend on the processing

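The counts of members called depended on the scaling and the libraries, and the cause was not tested. Except where shares are given above, these counts were not set against the share of all genes called under the same setting. They therefore do not show whether members were called more often than other genes. For treatment in control tumours (11 called: 3 higher, 8 lower), the direction turned with all-gene scaling (11, all higher) and with no filter on low counts (10, all higher). The count moved to 26 after background subtraction, 64 with raw library totals, 17 with limma-voom and 7 with the description number as a replicate block, and lay between 4 and 29 when each library was left out, 29 without control naive library 2. With raw library totals the direction turned there for Rpl22l1 (-0.07), Rps27 (-0.03), Rps27a (-0.60) and Rps27l (-0.62), each called under 1 of the 2 settings, and for Rpl10, Rpl37, Rps19 and Rps3, called under neither.

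For treatment in Sox2Hi tumours (6 called, all lower) the count was 25 with DESeq2, 11 with RLE factors, 28 with the compared groups only, 43 with raw library totals, 27 with limma-voom, 3 with sequence-matched pseudogenes added, 3 with the title number as a replicate block, and 0 with family scaling or no filter. With all-gene scaling 1 was called, higher. Leaving out each library gave 0 to 29.

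Between naive tumours (1 called) the count was 2 with DESeq2, 3 after background subtraction, 13 with limma-voom, 3 with the title number as a replicate block among naive libraries alone, and 0 with all-gene scaling, family scaling, no filter, the compared groups only or the description number as a replicate block. Leaving out each library gave 0 to 1. Between treated tumours (3 called, all lower) it was 10 with DESeq2, 5 with RLE factors, 8 with all-gene scaling, 5 with no filter, 1 with limma-voom, and 0 after background subtraction and with family scaling, the compared groups only, raw library totals or sequence-matched pseudogenes added, and 0 to 7 with each library left out. The treated libraries with the same number did not deviate together (r = -0.201), and a replicate block with crossed numbers, added after seeing the data, also called 0.

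For the interaction (0 called with edgeR) the count was 1 with DESeq2, 15 with all-gene scaling and 15 with no filter, and 0 with each library left out. The family's median turned sign between treated tumours with family scaling (0.02) and raw library totals (0.11), and for the interaction after background subtraction (0.00), with family scaling (0.05), with raw library totals (0.10) and without control treated library 2 (0.01; -0.33 to 0.01 with each library left out). With the replicate block by title number 8 were called in control and 4 between treated tumours. The sequence-matched pseudogenes and the fits with family scaling that left out libraries were added after seeing the data. With 2 treated libraries per graft, a member that missed the threshold may still have changed.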
